A study of Mus musculus with 6 samples.

Results

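The genes described are 47 genes of the G1/S transition, DNA replication and nucleotide synthesis, taken as a list of symbols by function, with no threshold on a measured value, though the list was drawn up with earlier results of these data known. All 47 were found among 46517 gene identifiers and all 47 passed the filter on low counts. They were read by RNA sequencing of poly(A) RNA in 6 libraries from CD8 T cells of C57BL/6J mice, 3 per group. Naive T cells from spleen and lymph nodes were stimulated on plates coated with anti-CD3 at 5 μg/mL, with soluble anti-CD28 at 0.5 μg/mL and IL-2 at 100 units/mL, for 3 days. Basophils were sorted and cultured apart for 2 days with IL-2, to which IL-3 (3 ng/mL) or PBS was added, and their medium was put on the T cells between day 1 and day 2; the resulting groups are called IL-3 supernatant and PBS supernatant. Neither group lacked basophil products, and there was no group without supernatant, so each difference below is IL-3 supernatant against PBS supernatant. IL-3 carried over in the supernatant cannot be told apart from products that basophils made in response to it. Whether replicates are separate mice, separate cultures or repeats of one is not in the labels, so every p-value below refers to library-to-library spread and that spread may be technical.

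Before a cell copies its genome, the origin recognition complex, CDC6 and CDT1 load rings of the MCM2-7 helicase onto DNA in G1, a step called licensing. At the start of S phase the kinase CDC7 with its partner DBF4, and cyclin E with its kinase, turn loaded rings into active helicases with CDC45 and the GINS complex, and polymerase alpha-primase, delta and epsilon then copy both strands behind a sliding clamp. Transcription factors of the E2F family switch on many of these genes as the RB family lets go of them, and a naive T cell, which is quiescent, builds up this set when antigen receptor stimulation brings it into the cycle.

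Promoter letters are given first because E2F sites are what this class of genes is known for, and they let rising and falling members be set side by side. Promoter windows of 250 bases before the RefSeq start, on GRCm38.p6, were at hand for 39 of the 47 members; none was printed or searched for Gins1, Gins2, Gins4, Pole, Rfc2, Prim2, Ccne2 and Mcm4. Both strands were searched for 4 common forms of the E2F site (TTTCCCGC, TTTGGCGC, TTTCGCGC and TTTGCCGC). A match stood in 9 of the 39 members with a window (23.1%), against 583 of 27025 genes with a window (2.16%). Each stretch of 30 bases around a match follows, 5′ to 3′ on the gene's own strand, with the matching letters in capitals.

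Mcm6 (upstream pair) chr1:128359795-128359824, minus strand: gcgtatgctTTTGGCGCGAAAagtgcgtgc
Mcm6 (near the start) chr1:128359734-128359763, minus strand: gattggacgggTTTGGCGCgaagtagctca
Mcm5 (pair) chr8:75109347-75109376, plus strand: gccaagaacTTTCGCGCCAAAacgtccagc
Mcm7 chr5:138172030-138172059, minus strand: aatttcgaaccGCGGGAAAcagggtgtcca
Uhrf1 chr17:56304117-56304146, plus strand: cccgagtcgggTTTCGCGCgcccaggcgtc
Orc1 chr4:108579416-108579445, plus strand: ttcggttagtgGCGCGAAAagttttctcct
Cdc6 chr11:98908002-98908031, plus strand: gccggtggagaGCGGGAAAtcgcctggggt
Gins3 chr8:95633507-95633536, plus strand: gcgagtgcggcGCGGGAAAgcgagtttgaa
Pola1 chrX:93632275-93632304, minus strand: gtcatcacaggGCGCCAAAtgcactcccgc
Rfc3 chr5:151651200-151651229, minus strand: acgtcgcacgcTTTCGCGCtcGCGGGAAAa

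In Mcm6 and Mcm5 the capitals hold a match on each strand, the 2 sharing 4 letters. The right-hand capitals of Rfc3 lie past the RefSeq start and are not among the matches counted before it. The matches began 110 and 47 bases before the RefSeq start in Mcm6, 153 in Mcm5 and 27 in Orc1. The windows of Uhrf1, Mcm7 and Cdc6 that hold the match belong to RefSeq starts 992, 539 and 350 bases from the start of the gene in the GENCODE annotation. Among these genes Mcm6, Mcm7 and Uhrf1 were lower with IL-3 supernatant, Orc1 was higher, and the other 5 did not pass the test. By call, a match stood in 3 of 12 members that were lower, 1 of 2 that were higher and 5 of 25 that did not pass, so members with these letters were found in every class. With the 50 bases after the start included, a match stood in 15 of the 39 members (38.5%, against 2.61% of all genes with a window), in 6 of 12 that were lower, 1 of 2 that were higher and 8 of 25 that did not pass.

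The whole upstream window of Mcm6, chr1:128359706-128359955 on the minus strand, is shown because it holds 3 matches and its gene was lower.
Mcm6 upstream window: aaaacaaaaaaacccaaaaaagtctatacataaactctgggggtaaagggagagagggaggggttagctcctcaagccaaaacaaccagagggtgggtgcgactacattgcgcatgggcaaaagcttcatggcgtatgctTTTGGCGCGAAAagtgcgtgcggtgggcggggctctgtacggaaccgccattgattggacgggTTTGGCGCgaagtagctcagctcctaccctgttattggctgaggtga
The other words searched were the CCAAT box (CCAAT), the GC box (GGGCGG) and the cell cycle homology region of late cell cycle promoters (TTTGAA). The CCAAT box was in 22 of the 39 members (56.4%) against 37.5% of all genes with a window, and the GC box in 30 (76.9%) against 35.4%. The cell cycle homology letters were in 6 (15.4%) against 18.3%. A match is a description of letters only and no binding was measured.

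In the fit over all genes, edgeR's quasi-likelihood test with Benjamini-Hochberg adjustment at 0.05 over 12407 genes, 12 of the 47 members were lower with IL-3 supernatant and 2 were higher. The lower members were E2f1, Uhrf1, Mcm6, Rpa1, Mcm7, Mcm2, Rpa2, Cdt1, Mcm3, Dbf4, Pold1 and Pcna, and the higher ones were Orc1 and Prim1. Together 14 of 47 passed in either direction, against 30.9% of all genes tested, and 14 of 47 is near that background. By direction, 25.5% of the members were lower against 16.1% of all genes tested, and 4.26% were higher against 14.8%. The differences were small: the log2 fold changes ran from -0.42 for E2f1 to 0.59 for Orc1. Beyond a fold of 1.2 in either direction were 5 of 47 members, against 5038 of the 12407 genes tested. The log2 fold change was below 0 in 40 of 47 members, against 6302 of the 12407 genes. Its median was -0.11 over the members and -0.0047 over all genes tested. In bulk RNA, fewer cycling cells and less of these transcripts per cell cannot be told apart.

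**Figure D1:**
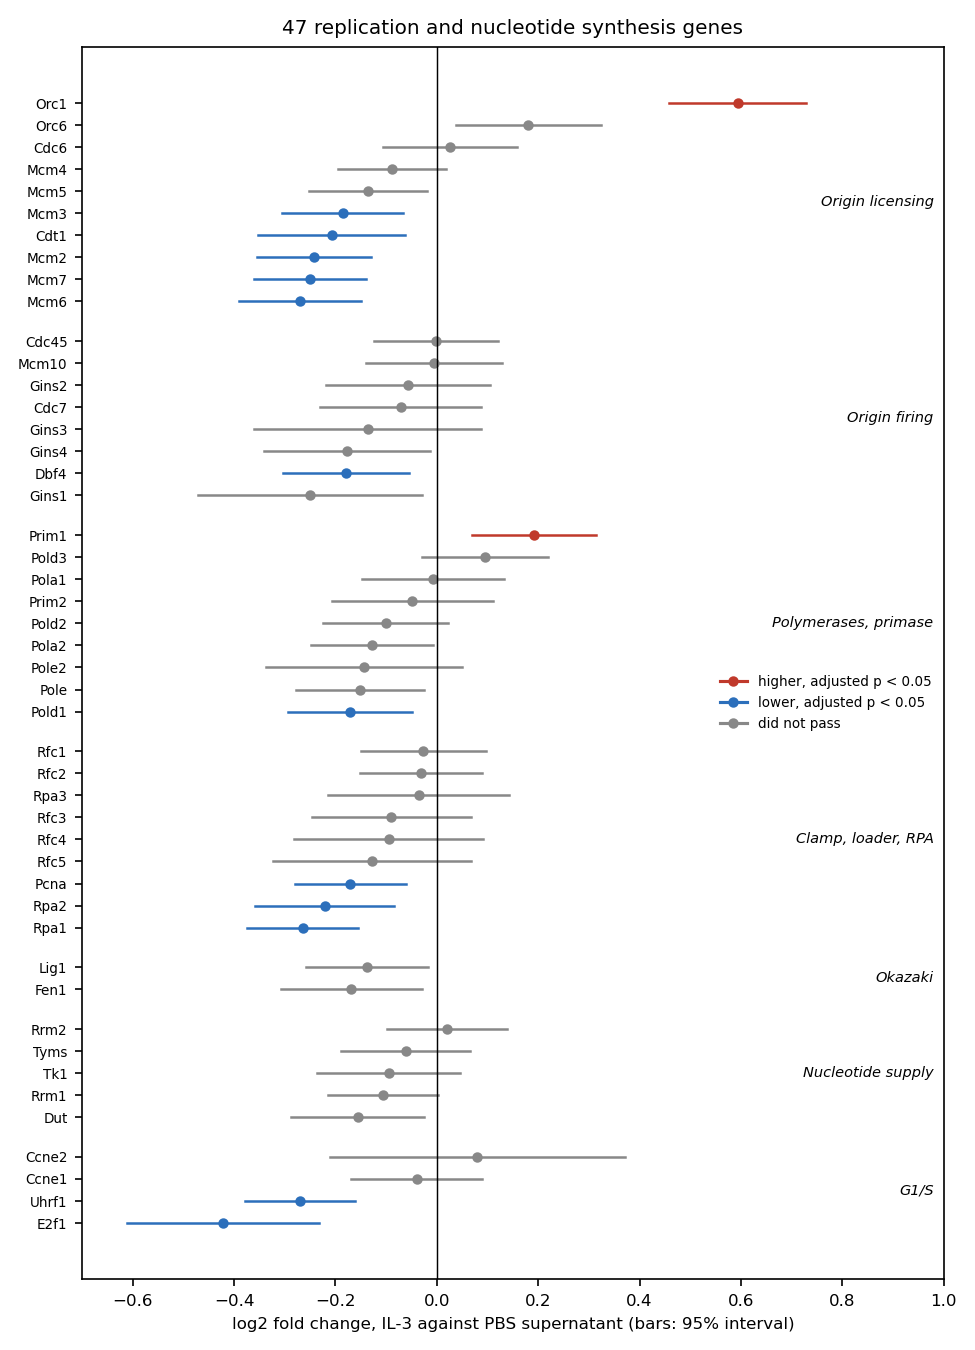
Log2 fold change of each of the 47 members, IL-3 supernatant against PBS supernatant (3 libraries each), grouped by role on the vertical axis; points are edgeR estimates, bars their 95% intervals, blue lower and red higher at an adjusted p under 0.05, grey not passed. Orc1 at 0.59 stands apart from the other licensing genes, which lie between -0.27 and 0.18, and 40 of the 47 points lie left of 0.

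The 95% interval lay wholly within a fold of 1.2 in either direction for 22 of the 33 members that did not pass, so for those a larger difference is outside the interval. For the other 11 the interval reaches further. Over all genes tested, the interval lay within that fold for 2771 of the 8572 that did not pass. Among genes with a mean of 10 CPM or more it did so for 2771 of the 5502 that did not pass. The 3 values of each group did not overlap for 20 members lower with IL-3 supernatant (42.6%, against 22.6% of all genes tested) and for 4 higher (8.51%, against 21.0%). At an unadjusted p under 0.05, 20 members were lower and 3 higher, against 20.6% and 19.3% of all genes.

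The count of lower members rests on single libraries. PBS replicate 1 was the lowest of its group in 40 of the 47 members, and its summed level of the members was 7734 CPM, the read count scaled to library size, against 8319 and 8325 in the other PBS libraries and 7402, 7364 and 7564 in the IL-3 libraries. The groups did not overlap in this sum. Without PBS replicate 1 the test called 21 members lower, and without PBS replicate 2 or PBS replicate 3 it called 6. Without IL-3 replicate 1 it called 7, and without IL-3 replicate 2 or 3 it called 9. Over all genes, these fits called lower 2102 of 12733, 1652 of 12749 and 1601 of 12769 without PBS replicates 1, 2 and 3. They called lower 1671 of 12697, 1653 of 12705 and 1621 of 12728 without IL-3 replicates 1, 2 and 3. Without PBS replicate 2 or PBS replicate 3, 6 of 47 is near the share of all genes, so the excess of lower members was not seen there. E2f1, Uhrf1, Mcm2, Mcm6, Mcm7, Rpa1 and Orc1 passed in each of these 6 fits. Library totals ran from 17377052 to 22174902 expected counts. PBS replicate 2 held 4.51% of its counts in 1 transcript, CT010467.1, against 0.433% to 2.2% in the others. Without that transcript the test still called 12 members lower, beside 1938 of all 12406 genes.

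**Figure D2:**
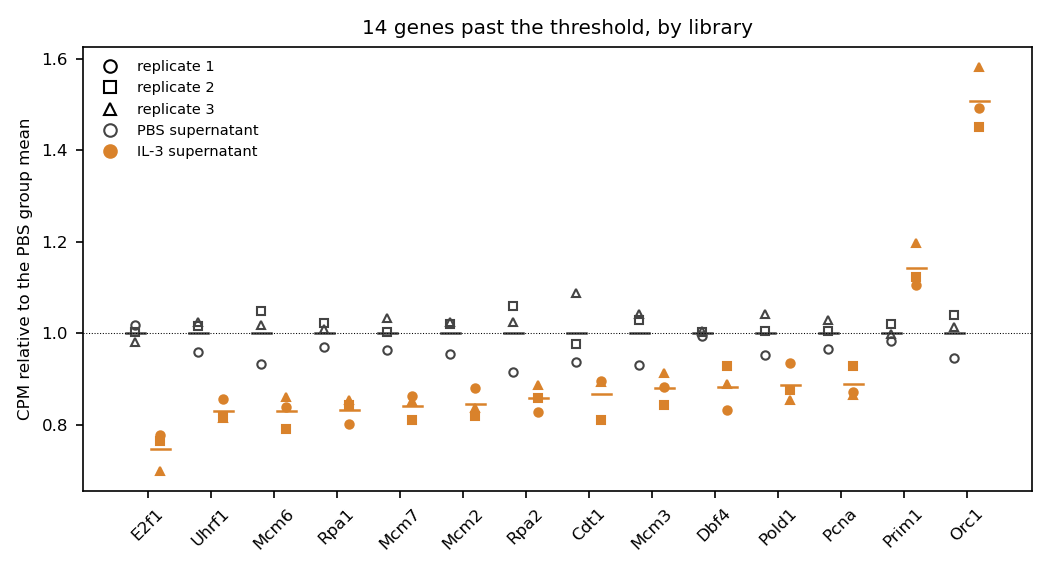
CPM of the 14 members past the threshold in each library, divided by the mean of the PBS group; symbols mark replicate numbers, open grey PBS supernatant and filled orange IL-3 supernatant, short lines the group means. The values of the groups do not overlap for any of the 14, with Orc1 the only gene far above 1.0 and E2f1 the lowest, and the open circles of PBS replicate 1 are the lowest PBS value in most genes. The 14 were picked by the test on these same values. Over all genes tested, 22.6% were lower and 21.0% higher without overlap.

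Origin licensing held both the member that rose most and 5 of the 12 that fell. Orc1, which encodes the largest subunit of the origin recognition complex and is its cell cycle-regulated part, was read at 58.1, 63.9 and 62.3 CPM with PBS supernatant and at 91.8, 89.1 and 97.2 CPM with IL-3 supernatant. Every IL-3 library was above every PBS library. Orc1 rose 1.51-fold (log2 fold change 0.59, SE 0.063, edgeR adjusted p = 1.6e-06). An antisense gene that overlaps an exon of Orc1, Gm12743, held 13.1 to 28.2 expected counts per library, against at least 1045 for Orc1. Orc6, the small subunit that helps load MCM rings, was read at 64.7, 76.9 and 71.6 CPM with PBS supernatant and at 80.5, 80.4 and 80.6 CPM with IL-3 supernatant. The groups did not overlap, but Orc6 missed the threshold (log2 fold change 0.18, 95% interval 0.037 to 0.32, edgeR adjusted p = 0.053). Of the subunits kept in the wider list, Orc2 rose (log2 fold change 0.20, adjusted p = 0.018), while Orc3, Orc4 and Orc5 did not pass.

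The MCM2-7 ring is the core of the replicative helicase, and 4 of its 6 genes fell, against 16.1% of all genes tested. Mcm6 was read at 500, 563 and 546 CPM with PBS supernatant and at 450, 424 and 461 CPM with IL-3 supernatant. Mcm7 was read at 338, 353 and 363 CPM against 303, 284 and 299 CPM, and Mcm2 at 297, 317 and 319 CPM against 274, 254 and 260 CPM. Each of these 3 genes was lower in every IL-3 library than in any PBS library, and they fell by 0.27, 0.25 and 0.24 on the log2 scale (SE 0.057, 0.052 and 0.053, edgeR adjusted p = 0.0014, 0.0013 and 0.0020). Mcm3 was read at 437, 483 and 489 CPM against 414, 395 and 429 CPM, and fell by 0.19 (edgeR adjusted p = 0.018), though it passed in only 2 of the 6 fits that leave out 1 library. The other 2 ring genes did not pass: Mcm5 was at -0.14 (95% interval -0.25 to -0.020, adjusted p = 0.071) and Mcm4 at -0.088 (95% interval -0.19 to 0.018, adjusted p = 0.21). All 6 ring genes therefore had a log2 fold change below 0, as did 6302 of the 12407 genes tested. Mcm7 overlaps exons of the antisense neighbours Cops6 and Ap4m1 and hosts the microRNA genes Mir25 and Mir93. The counting strand is not given in the sources used here, so reads over those shared exons cannot be told apart.

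The loading factors CDC6 and CDT1, which bring MCM rings to the origin complex, gave different calls. Cdt1, the partner that the inhibitor geminin binds, was read at 82.7, 86.2 and 96.2 CPM with PBS supernatant and at 79.0, 71.6 and 79.0 CPM with IL-3 supernatant, and fell by 0.21 on the log2 scale (SE 0.068, edgeR adjusted p = 0.029), a call kept in 1 of the 6 fits that leave out a library. Cdc6 ran from 104 to 118 CPM in the PBS group and from 112 to 119 CPM in the IL-3 group, overlapping, with a log2 fold change of 0.026 (95% interval -0.11 to 0.16). The whole licensing set of 10 genes had a summed level of 2821 ± 140 CPM in the PBS group and 2537 ± 65.2 CPM in the IL-3 group (SD over 3 libraries).

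Of 8 origin firing genes only Dbf4, the activating subunit of the CDC7 kinase, passed. The share called lower was 12.5%, against 16.1% of all genes tested. Dbf4 was read at 109, 110 and 110 CPM with PBS supernatant and at 91.5, 102 and 97.6 CPM with IL-3 supernatant, a fall of 0.18 on the log2 scale (SE 0.059, edgeR adjusted p = 0.029) that was kept in 2 of the 6 fits that leave out a library. Its kinase partner Cdc7 overlapped between groups (log2 fold change -0.072, 95% interval -0.23 to 0.087). Mcm10, which helps turn the loaded helicase on and had the highest counts of this set, was read at 127, 145 and 131 CPM with PBS supernatant and at 132, 128 and 141 CPM with IL-3 supernatant. Those values interleave, and the log2 fold change was -0.0061 (95% interval -0.14 to 0.13). Cdc45, the helicase cofactor, was equally flat at 90.1 to 97.6 CPM against 92.6 to 96.7 CPM. Gins1, a subunit of the GINS complex that completes the helicase, was read at 22.1, 24.3 and 26.4 CPM with PBS supernatant and at 19.7, 22.7 and 18.7 CPM with IL-3 supernatant. The groups overlapped by 1 library each, and its log2 fold change of -0.25 did not pass (95% interval -0.47 to -0.028, edgeR adjusted p = 0.083). Gins4 (-0.18) and Gins3 (-0.14) did not overlap between groups but did not pass, and Gins2 stood at -0.056. Of the 8 genes 37.5% were lower without overlap, against 22.6% of all genes tested.

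Among the 9 polymerase and primase genes, Prim1 rose and Pold1 fell (11.1% each, against 14.8% higher and 16.1% lower over all genes). Prim1, the catalytic primase subunit that lays the RNA primer, was read at 89.2, 92.6 and 90.6 CPM with PBS supernatant and at 100, 102 and 109 CPM with IL-3 supernatant. It was higher in 3 of 3 IL-3 libraries (log2 fold change 0.19, SE 0.058, edgeR adjusted p = 0.018), but the call was lost without PBS replicate 3 and without IL-3 replicate 3. Its partners in the same complex did not pass: Prim2 was at -0.049 (95% interval -0.21 to 0.11), Pola1 at -0.0076 (95% interval -0.15 to 0.13) and Pola2 at -0.13 (95% interval -0.25 to -0.0075). Pold1, the catalytic subunit of the lagging strand polymerase delta, was read at 158, 167 and 173 CPM against 155, 145 and 141 CPM and fell by 0.17 (SE 0.058, edgeR adjusted p = 0.032). It passed in 2 of the 6 fits that leave out a library. Pole, the catalytic subunit of the leading strand polymerase epsilon and the member of this set with the highest counts, was read at 202, 229 and 218 CPM with PBS supernatant and at 199.9, 184 and 201 CPM with IL-3 supernatant. The groups lay close without overlap and Pole missed the threshold at -0.15 (edgeR adjusted p = 0.065). Pole2 (-0.14), Pold2 (-0.10) and Pold3 (0.095) did not pass, with Pold3 above the PBS values in all 3 IL-3 libraries.

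The sliding clamp, its loader and the single-strand binding protein RPA gave 3 falls among 9 genes (33.3%, against 16.1% of all genes tested). Pcna, the clamp that holds polymerases on DNA, was read at 532, 554 and 567 CPM with PBS supernatant and at 481, 512 and 476 CPM with IL-3 supernatant, a fall of 0.17 on the log2 scale (SE 0.052, edgeR adjusted p = 0.018) that was kept in 2 of the 6 fits that leave out a library. Rpa1, the large DNA-binding subunit of RPA, was read at 273, 287 and 284 CPM against 225, 237 and 240 CPM and fell by 0.26 (SE 0.052, edgeR adjusted p = 8.0e-04). Rpa2, its middle subunit, was read at 87.2, 101 and 97.7 CPM against 78.9, 81.8 and 84.5 CPM and fell by 0.22 (SE 0.065, edgeR adjusted p = 0.016), kept in 2 of the 6 fits. None of the 3 overlapped between groups (33.3% of the 9 were lower without overlap, against 22.6% of all genes tested). The small subunit Rpa3 did overlap, with a log2 fold change of -0.036 (95% interval -0.21 to 0.14). The 5 loader genes Rfc1 to Rfc5 all overlapped between groups and none passed, their log2 fold changes running from -0.13 for Rfc5 to -0.026 for Rfc1. In the 1 library with isoform values, PBS replicate 2, transcripts annotated as protein coding made up 12.9% of the Rfc2 level, so most of its signal there was assigned to other models.

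Neither gene of Okazaki fragment joining passed, although both lay near the threshold. Fen1, the flap nuclease that trims the displaced primer, was read at 121, 138 and 144 CPM with PBS supernatant and at 115, 123 and 121 CPM with IL-3 supernatant (log2 fold change -0.17, 95% interval -0.31 to -0.030, edgeR adjusted p = 0.062). Lig1, the ligase that seals the nick, was read at 225, 236 and 233 CPM against 211, 197 and 224 CPM (log2 fold change -0.14, 95% interval -0.26 to -0.017, edgeR adjusted p = 0.079). Fen1 overlapped between groups by PBS replicate 1 and Lig1 did not overlap.

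None of the 5 nucleotide synthesis members passed, where 30.9% of all genes tested passed in either direction. Rrm1, the large catalytic subunit of ribonucleotide reductase, was read at 526, 565 and 573 CPM with PBS supernatant and at 507, 516 and 523 CPM with IL-3 supernatant. The groups stood next to each other without overlap (log2 fold change -0.11, 95% interval -0.21 to 0.0026, edgeR adjusted p = 0.14). Its small subunit Rrm2, the part whose amount follows S phase, was read at 332, 372 and 363 CPM against 348, 359 and 376 CPM, interleaved (log2 fold change 0.020, 95% interval -0.098 to 0.14). Dut, which removes dUTP so that uracil is not built into DNA, had the lowest log2 fold change of this set at -0.16 and was read at 207, 231 and 241 CPM against 197, 199 and 213 CPM (edgeR adjusted p = 0.065). Tk1, the salvage thymidine kinase, was at -0.095 (95% interval -0.24 to 0.046). Tyms, which makes dTMP, was at -0.062 (95% interval -0.19 to 0.065), and in PBS replicate 2 protein coding transcripts made up 19.8% of its level.

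The 4 G1/S regulators divided into 2 that fell and 2 that did not pass. E2f1, an activating E2F factor, was read at 28.9, 28.5 and 27.9 CPM with PBS supernatant and at 22.1, 21.7 and 19.9 CPM with IL-3 supernatant, with no overlap. E2f1 fell by 0.42 on the log2 scale (SE 0.089, edgeR adjusted p = 0.0016), the lowest fold change of the 47. Uhrf1, which recruits the maintenance DNA methyltransferase to new strands, was read at 409, 434 and 437 CPM against 365, 348 and 348 CPM and fell by 0.27 (SE 0.051, edgeR adjusted p = 5.8e-04). The cyclin E genes, whose products drive CDK2 at the G1/S transition, overlapped between groups: Ccne1 was at -0.040 (95% interval -0.17 to 0.089) and Ccne2 at 0.079 (95% interval -0.21 to 0.37). The Ccne2 interval is the widest of the 4 and reaches beyond a fold of 1.2 on the upper side.

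Levels can be compared between genes only per transcript length, for which the deposited TPM values, which are scaled to both transcript length and library size, serve. The gene-level TPM was available for 5 libraries, and that of PBS replicate 2 was summed from its isoforms. Pcna was highest at 703 ± 27.6 TPM with PBS supernatant and 635 ± 23.5 TPM with IL-3 supernatant (SD, n = 3 each), and Gins3 was lowest at 13.9 ± 0.89 and 12.8 ± 0.91 TPM. In the PBS group Pcna was followed by Dut (356 ± 22.5 TPM), Mcm6 (349 ± 11.9 TPM) and Rrm2 (317 ± 10.9 TPM), where Dut and Mcm6 did not differ beyond their spread. With IL-3 supernatant the order was Rrm2 (327 ± 14.9 TPM), Dut (323 ± 18.9 TPM) and Mcm6 (296 ± 14.8 TPM), and again the first pair did not differ beyond their spread. Orc1 moved from place 42 of 47 to place 35, from 42.0 ± 2.71 to 63.7 ± 2.49 TPM, and E2f1 kept place 46, at 20.01 ± 0.84 and 15.2 ± 0.74 TPM.

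**Figure D3:**
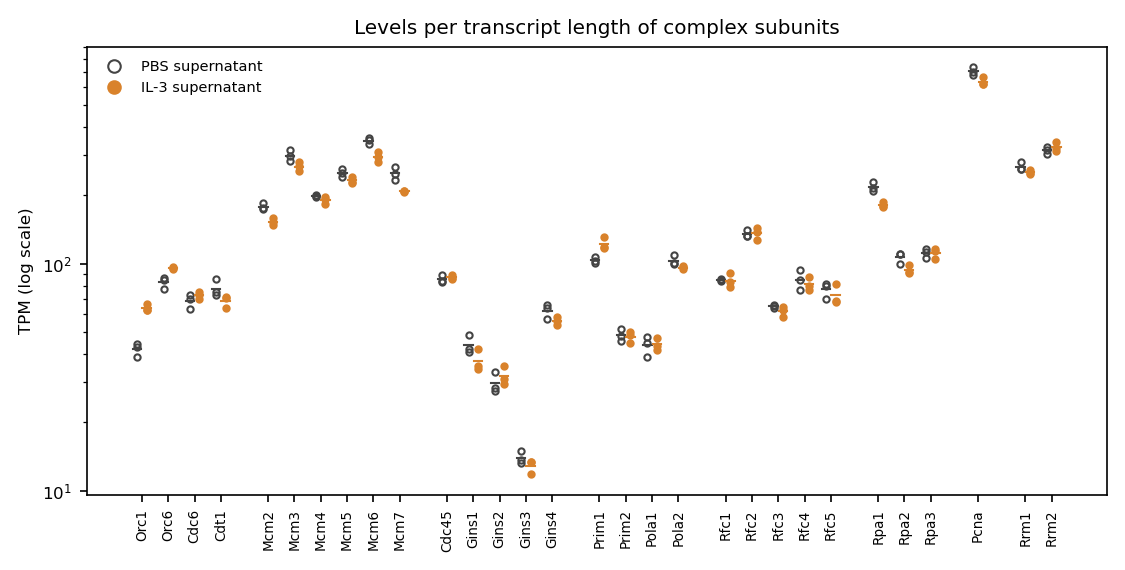
TPM of the subunits of the main replication complexes in each library on a log axis, left to right: licensing factors, MCM2-7, CDC45 and GINS, primase and polymerase alpha, the clamp loader, RPA, the clamp, and ribonucleotide reductase; open grey PBS supernatant, filled orange IL-3 supernatant, short lines the group means of 3 libraries. Pcna is highest at 703 and 635 TPM, Gins3 lowest at 13.9 and 12.8 TPM, and the Orc1 points move upward from 42.0 to 63.7 TPM while the MCM points move slightly downward.

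TPM ratios between members were read as a description, with no test. The ratio of Orc1 to Orc6 was 0.503, 0.510 and 0.509 with PBS supernatant and 0.653, 0.655 and 0.690 with IL-3 supernatant. That of Orc1 to Mcm6 was 0.120 ± 0.0046 and 0.215 ± 0.0055 (SD, n = 3 each), and that of Prim1 to Prim2 was 2.15 ± 0.076 and 2.57 ± 0.13. The groups did not overlap in these 3 ratios. Each of the 3 holds Orc1 or Prim1, which passed above in the same libraries, so the ratios in part restate those differences. Rrm1 to Rrm2 went from 0.843 ± 0.019 to 0.773 ± 0.018, Rpa1 to Rpa3 from 1.95 ± 0.13 to 1.63 ± 0.076 and Mcm6 to Mcm5 from 1.39 ± 0.013 to 1.27 ± 0.033, also without overlap. Mcm6 to Mcm4 (1.75 ± 0.054 and 1.55 ± 0.079) and Cdt1 to Cdc6 (1.13 ± 0.079 and 0.943 ± 0.028) did not overlap either. Rpa1, Mcm6 and Cdt1 also passed above in the same libraries, so ratios that hold them in part restate those differences too. Ratios that did overlap were Prim1 to Pola1 (2.39 ± 0.21 and 2.79 ± 0.33) and Ccne1 to Ccne2 (2.08 ± 0.24 and 1.91 ± 0.12).

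Other genes of the same processes, 84 in a list kept apart from the members, gave 23 lower (27.4%) and 9 higher (10.7%) in the same fit, with a median log2 fold change of -0.014, beside 16.1% lower and 14.8% higher over all genes tested. In the G1/S part of that list, 7 of 17 genes fell (41.2%) and none rose, none being higher at an unadjusted p under 0.05 either. E2f2, an activating E2F, was read at 82.5, 81.5 and 87.5 CPM with PBS supernatant and at 62.3, 58.4 and 54.3 CPM with IL-3 supernatant (log2 fold change -0.52, SE 0.067, edgeR adjusted p = 1.3e-05). E2f8, an atypical repressor E2F, fell by 0.43 (edgeR adjusted p = 5.5e-05) and Ccna2, cyclin A2 of S phase and G2, by 0.28 (edgeR adjusted p = 3.5e-04). The E2F and RB families were then read whole, a choice made after the values were seen. E2f7, the other atypical repressor, stood at -0.56, the repressor E2f6 at -0.47, Rbl1, encoding the pocket protein p107, at -0.32 and Rb1 at -0.29, and all 4 passed. E2f3 (-0.0083), E2f4 (0.024), E2f5 (0.29), Tfdp1 (-0.021), Tfdp2 (0.14) and Rbl2 (0.014) did not. The fall was thus found in activating E2F genes, in repressor E2F genes and in RB family genes alike, but not in every member of any of these classes.

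**Figure D4:**
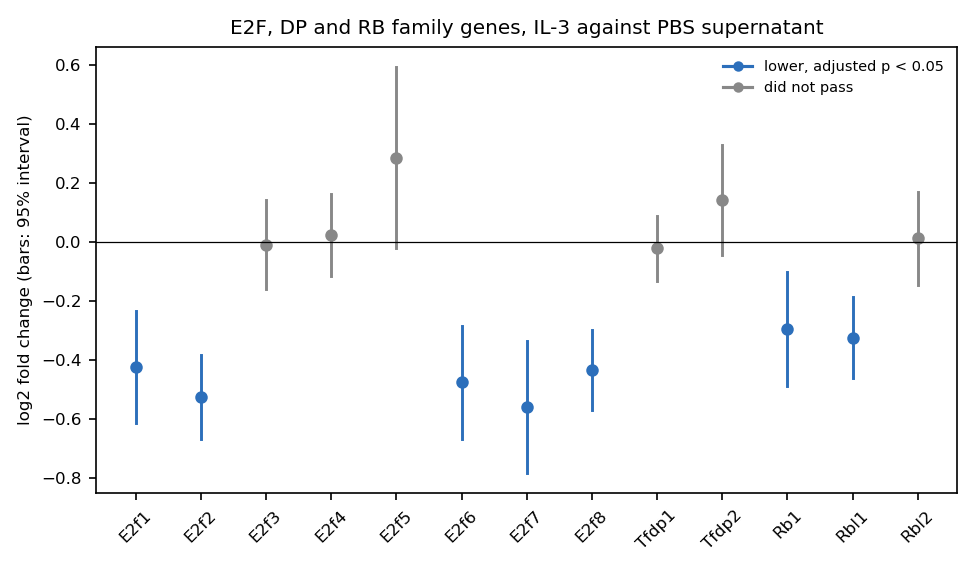
Log2 fold change, IL-3 supernatant against PBS supernatant, of 13 genes of the E2F, DP and RB families; points are edgeR estimates over 3 libraries per group, bars their 95% intervals, blue lower at an adjusted p under 0.05, grey not passed. E2f1, E2f2, E2f6, E2f7, E2f8, Rb1 and Rbl1 lie between -0.56 and -0.29, and the other 6 have intervals that include 0.

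In the wider nucleotide supply list of 29 genes, 5 rose and 5 fell (17.2% each), near the background of 14.8% higher and 16.1% lower over all genes tested. Samhd1, the hydrolase that breaks down dNTPs, was read at 286, 293 and 305 CPM with PBS supernatant and at 149, 143 and 138 CPM with IL-3 supernatant, a fall of 1.04 on the log2 scale (SE 0.054, edgeR adjusted p = 2.3e-10) and larger than that of any of the 47 members. Dck, the salvage deoxycytidine kinase, fell by 0.48 (edgeR adjusted p = 2.0e-05). Prps1, which makes the ribose donor PRPP for new nucleotides, was read at 119, 125 and 127 CPM against 155, 159 and 164 CPM and rose by 0.37 (SE 0.055, edgeR adjusted p = 6.3e-05). The other genes of this list that passed are named here because their values were seen: Mthfd2 and Shmt2 of mitochondrial folate metabolism, Ctps and Gmps of CTP and GMP synthesis rose, and Impdh1, Atic and Ctps2 fell.

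At the fork, 6 of 18 listed genes fell (33.3%) and 2 rose (11.1%), against 16.1% and 14.8% of all genes tested. Top1, the topoisomerase that relaxes DNA ahead of the fork, rose by 0.25, while Clspn, the checkpoint mediator claspin, fell by 0.20 and Pclaf, a PCNA-associated factor, by 0.21 (edgeR adjusted p = 0.0024, 0.011 and 0.017). Of 7 chromatin assembly genes 4 fell (57.1%) and none rose, also at an unadjusted p under 0.05. Asf1b, a histone chaperone, fell by 0.33, Dnmt1, the maintenance methyltransferase that UHRF1 recruits, by 0.23 and Chaf1b, a subunit of the CAF-1 chaperone, by 0.25 (edgeR adjusted p = 0.0012, 0.0013 and 0.016). Of 13 further origin genes 1 fell (7.69%) and 2 rose (15.4%), neither share far above that of all genes. Donson fell by 0.27 while Orc2 and Mtbp, an origin firing factor, rose by 0.20 and 0.21 (edgeR adjusted p = 0.013, 0.018 and 0.033).

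The members can be set beside genes of mitosis, which act later in the cycle. Of 35 listed mitosis genes 16 fell (45.7%, against 16.1% of all genes tested) and none passed as higher (against 14.8%), 1 being higher at an unadjusted p under 0.05, with a median log2 fold change of -0.16. Cenpa, the centromeric histone, fell by 0.44, Incenp of the chromosomal passenger complex by 0.43 and Ccnb2, a B-type cyclin, by 0.50 (edgeR adjusted p = 3.7e-06, 5.0e-06 and 1.1e-05). Whether the members and the mitosis genes differ from each other was not tested. Among 9 D-type cyclin, CDK and CDK inhibitor genes that passed the filter, 3 rose (33.3%) and 2 fell (22.2%). The shares over all genes tested were 14.8% and 16.1%. Cdkn1a, encoding the CDK inhibitor p21, was read at 122, 117 and 121 CPM against 286, 288 and 295 CPM (log2 fold change 1.27, edgeR adjusted p = 1.1e-11), Cdkn2c, encoding the inhibitor p18, fell by 1.30, and Ccnd2, cyclin D2, rose by 0.39 (edgeR adjusted p = 8.6e-07 and 5.7e-06).

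**Figure D5:**
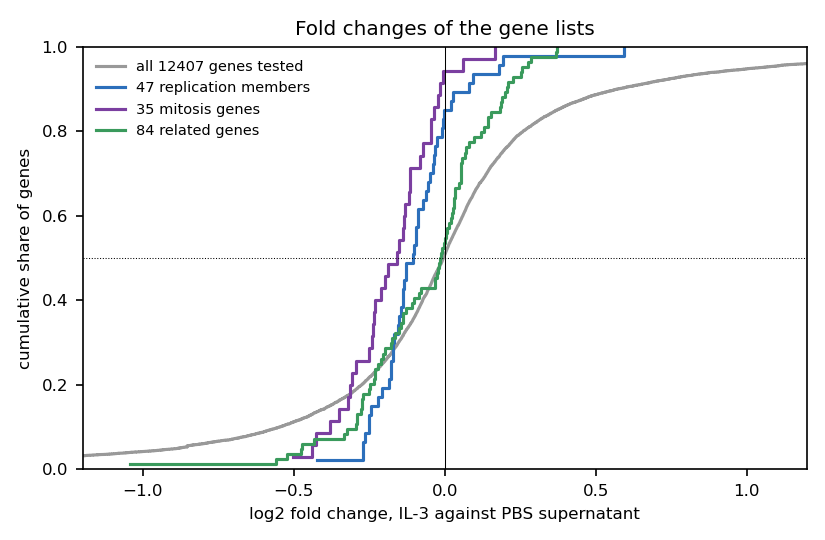
Cumulative share of genes (vertical axis) against log2 fold change, IL-3 supernatant against PBS supernatant, for all 12407 genes tested, the 47 members, 84 related genes and 35 mitosis genes; the dotted line marks the median. The curves of members and mitosis genes cross it at -0.11 and -0.16, and those of related genes and all genes at -0.014 and -0.0047.

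Because the members are well expressed, a background of genes at similar depth was also read: of 8362 genes with a mean of 10 CPM or more, 19.0% were lower and 15.2% higher, with a median log2 fold change of -0.011. Of the markers of the labelled cell type, all 8 were detected in every library, with Cd8a at 805 to 886 CPM in the PBS group and 367 to 395 CPM in the IL-3 group. These markers moved in different directions: Cd8a, Cd8b1, Cd3e, Cd3d, Cd3g and Cd2 fell, Cd5 rose and Lck did not pass, and the 8 summed to 2585 to 2765 CPM and 1876 to 2064 CPM. Of the CD4 T cell markers, Cd4 was at most 0.83 CPM, while Zbtb7b, the transcription factor of that lineage, rose from 4.85 to 8.24 CPM in the PBS group to 16.9 to 19.4 CPM in the IL-3 group (log2 fold change 1.498, edgeR adjusted p = 2.7e-06). Of 8 basophil and mast cell markers 5, among them Mcpt8, Prss34 and Fcer1a, were at 0 in every library, and the list summed to 2.27 to 3.28 CPM with PBS supernatant and 0.463 to 0.856 CPM with IL-3 supernatant, nearly all of it Kit. Of the B cell markers reported here, Ebf1 rose from between 0.278 and 0.627 CPM to between 3.88 and 5.97 CPM, while Cd79a and Ms4a1 were at or under 0.31 CPM in every library. Myeloid markers summed to 1.61 to 2.57 CPM and 1.35 to 2.55 CPM, and NK markers to 0.554 to 0.668 CPM and 0.360 to 0.675 CPM. The part of these markers in the members' differences was not tested.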

How the data were processed

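Poly(A) RNA of 6 libraries was read. Per the submitters' processing notes, RSEM 1.2.12 and Bowtie2 2.2.0 with GRCm38 were used, and edgeR 3.20.9 is named; their roles, the strand setting and trimming were not found in those notes. The authors deposited RSEM expected counts per Ensembl gene for each library, which need not be whole and were rounded here, and TPM values per gene for 5 libraries and per isoform for PBS replicate 2. Symbols matched 46005 of 46517 identifiers. Reads that fit several genes are shared out in such counts: 9 members had fractional counts in all 6 libraries and 13 overlap an antisense exon. Genes were kept by filterByExpr (minimum count 10), scaled by TMM and tested with edgeR 4.0.16 (R 4.3.3), robust quasi-likelihood, group as the only term, adjusted over 12407 genes. CPM values use TMM library sizes; intervals are 95% and cover the spread between libraries. Promoter sequences are RefSeq's, on GRCm38.p6; exon overlaps came from GENCODE M21. On simulated data over 12407 genes for this comparison the test recovered 22.0% of genes changed 1.25-fold and 84.0% of those changed 1.5-fold. The median SE of the log2 fold change was 0.061 over the members and 0.10 over all genes tested. The share recovered at the members' own spread was not tested. DESeq2 1.42.0, limma 3.58.1, other scalings, filters, TPM pseudocounts and leaving out each library were alternatives. Named in the text are all members by role, with values per library for those that passed and, in each role, for the gene with the highest mean CPM and the one with the largest fold change, plus up to 3 genes with the smallest p in each other list. The members and lists were chosen with earlier results of these data known. No columns of other samples were present. One B cell marker of the marker lists is not reported here.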

Additional observations from a re-analysis of the deposited data

How the results depend on the processing

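All 14 members that passed kept their sign in 19 refits, and E2f1, Uhrf1, Mcm7, Rpa1 and Orc1 passed in every one. Lower members numbered 7 with upper-quartile factors, 6 with log2(TPM + 1) over 5 or 6 libraries and with log2(TPM + 0.1), 4 with TPM and no filter, 6 at an adjusted p under 0.01 and 0 when a fold of 1.2 was tested (glmTreat, where 1 was higher; at an unadjusted p under 0.05 edgeR's own test had 20 lower); with DESeq2 they numbered 12. Leaving out 1 library gave 6 to 21 lower and 1 to 3 higher members, and 14 to 27 lower related genes. Higher members numbered 1 with TPM and no filter and at 0.01. Related genes numbered 3, 3 and 2 higher with log2(TPM + 1), log2(TPM + 0.1) and TPM without a filter, and 4 at 0.01 and 0 with the fold test; lower ones numbered 12 with log2(TPM + 1) over 5 libraries and 11 over 6, 13 with log2(TPM + 0.1), 8 without a filter, 11 at 0.01 and 6 with the fold test. All genes numbered 821 higher and 1011 lower with TPM and no filter, 928 and 937 with the fold test, and 1217 higher at 0.01. Lower genes numbered 1743 of 12407 with upper-quartile factors, and 1423 and 1436 with log2(TPM + 1) over 5 and 6 libraries. They numbered 1399 with log2(TPM + 0.1) and 1393 at 0.01. With upper-quartile factors, the filtered log2(TPM) fits and the 0.01 threshold, the share of lower members was near that of all genes. It was not near with DESeq2 (1821 lower genes, 12 lower members). The fold test called 0 of 47 members lower, beside 937 of 12407 genes. TPM without a filter called 4 of 47, beside 1011 of 20208 genes. The fold test and the 0.01 threshold ask for more by construction; for the others the cause was not tested. The median member fold change stayed between -0.14 and -0.078. Of 33 members that did not pass, 13 changed sign and 10 passed somewhere, Orc6 in 10 refits, and none passed in opposite directions.

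Same-numbered libraries correlated at -0.15, 0.052 and 0.25 in their deviations, and differently numbered ones at -0.28 to 0.26. With 3 libraries per group these values cannot settle whether the numbers pair libraries, and the main fit used no pairing. The fit with the replicate number as a block called 9 members lower and 2 higher, beside 1776 and 1634 of all 12407 genes.

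What greater depth would change was not tested. A member that did not pass is not shown to be level; its interval gives the size that these libraries leave possible.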

Other observations

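Isoform levels were at hand for PBS replicate 2 only, with no replicate. The leading isoform was annotated as protein coding for 45 of the 47 members and held 90% or more of the gene's TPM for 27. The exceptions were Rfc2, led by a retained intron model at 47.6% of its TPM, and Tyms, led by a model marked for nonsense-mediated decay at 51.1%. Orc1 was led by its protein coding isoform at 86.2% of 44.1 TPM.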
